A study of Mus musculus with 2 samples.

Results

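The genes described here are 9 genes of transcriptional silencing, chosen by name: the Polycomb genes Rnf2, Cbx2, Cbx7, Phc2, Eed and Suz12 and the DNA methyltransferase genes Dnmt1, Dnmt3a and Dnmt3b. They are 9 of 12393 named genes on the array, and they are represented by 28 of the 20380 probe sets that carry a single gene symbol. These genes, and the gene lists set beside them, were chosen with earlier results of these data known. Transcripts were measured on 1 Affymetrix array of primitive haematopoietic stem cells (HSC) and 1 array of maturing HSC, both sorted by flow cytometry from mouse bone marrow after 30 min in culture and left untreated. The sources used here do not give strain, age, genotype or the surface phenotype of the sort. Each array was hybridised with material copied from a cloned cDNA library: RNA was primed at the poly(A) tail, amplified by PCR, size fractionated and ligated into a phage vector before labelling. The values therefore describe the make-up of 1 library per population. Neither group was replicated, so no difference has an error between samples and no p-value is given.

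Polycomb proteins work in 2 families of complex that keep genes silent. Polycomb repressive complex 2 (PRC2) methylates histone H3 at the site H3K27, through the enzymes Ezh1 or Ezh2 with the core subunits Eed and Suz12. Polycomb repressive complex 1 (PRC1) holds the Ring-type ubiquitin ligases that modify histone H2A, together with Cbx readers of the PRC2 mark and Phc scaffold proteins. DNA methylation is a separate silencing mark, copied after replication by Dnmt1 and laid down on unmethylated DNA by Dnmt3a and Dnmt3b. In mouse blood stem cells both systems are known for their part in self-renewal and in the choice between renewal and differentiation.

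Intensities are MAS5 signals in arbitrary units, brought to the same trimmed mean on both arrays. Values under a floor of 441, the pooled median of all probe sets other than controls, were not ordered. A probe set under the floor on 1 array gives only a bound on the difference, and a probe set under it on both arrays was not measured. Of the 12393 genes, 8852 were measured, with a median log2 ratio of primitive over maturing HSC of 0.07 and quartiles of -0.67 and 0.69. Among probe sets above the floor on both arrays, the spread between those of the same gene was 0.82 (SD, log2 scale, 1318 genes). It describes how far probe sets disagree within this pair of libraries. It is not an error of the difference between the populations, and it sets no threshold for one. All 12 stem cell markers on the array were above the floor on at least 1 array, 6 higher and 6 lower in primitive HSC. Among them the receptor gene Kit read 3802 in primitive HSC and 5053 in maturing HSC, and the endothelial protein C receptor gene Procr 11571 in primitive HSC and 1895 in maturing HSC.

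By the brightest probe set of each gene, 7 of the 9 silencing genes read lower in primitive HSC than in maturing HSC, against 47.3% of all measured genes, and 2 read higher, against 52.7%. Their median log2 ratio was -0.71, against 0.07 over all measured genes. At 2-fold, Rnf2 and Phc2 were lower in primitive HSC, where the share of all measured genes was 17.6%. Cbx2 was higher, and so was Dnmt3a by that probe set, where the share was 15.6%. None of the 9 reached 4-fold by this probe set, and 8.13% of all measured genes did so in either direction. Past 2-fold in either direction there were 4 of 9, beside 33.3% of all measured genes. Because the genes were chosen with earlier results of these data known, the shares are descriptions and cannot show an excess. Scaling the arrays to the hybridisation controls in place of the trimmed mean shifted ratios downward, and the median of all measured genes became -0.67. The count of 7 lower genes stayed at 7 under that scaling, but the share of all measured genes below 0 became 77.9%.

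Counting every probe set, 18 of the 28 were measured and 10 were under the floor on both arrays. Of the 18, 15 read lower in primitive HSC, where 50.7% of all measured probe sets did so, and 3 read higher, against 49.3%. A 2-fold difference was reached by 8 probe sets as lower, against 18.5% of all measured probe sets, and by 2 as higher, against 13.9%. In 6 of the 18 the primitive array was under the floor, and in 1 the maturing array was. Among the 7 genes with more than 1 measured probe set, all probe sets pointed the same way in 6, against 55.6% of such genes on the array. Dnmt3a was the exception. Probe sets of 1 gene share the library and often the transcript, so they are not independent replicates.

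**Figure D1:**
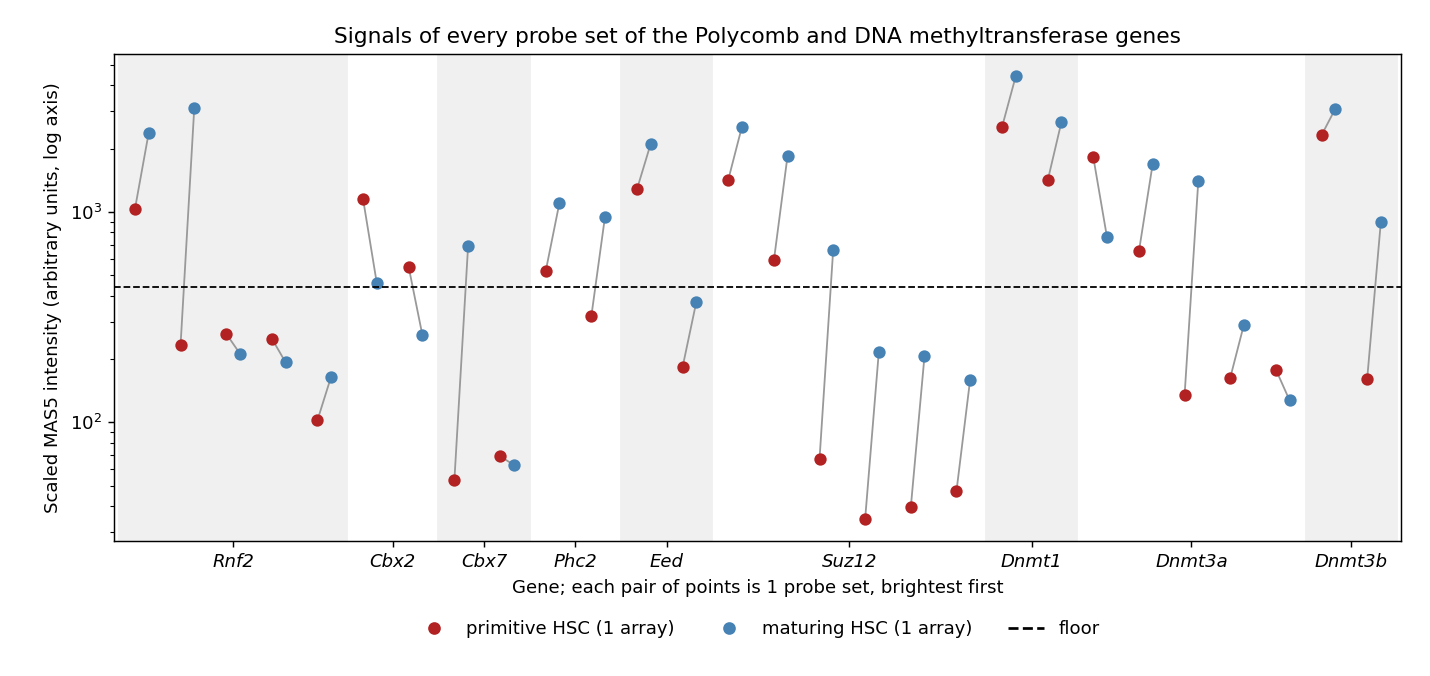
Scaled MAS5 intensity (log axis) of all 28 probe sets of the 9 genes, each as a pair of points for the primitive HSC array (left, red) and the maturing HSC array (right, blue), with the floor of 441 dashed. Most pairs above the floor climb from left to right, while both Cbx2 probe sets and the brightest Dnmt3a probe set descend.

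Among the 4 PRC1 genes chosen here, Rnf2, Phc2 and Cbx7 read lower in primitive HSC and Cbx2 higher. Rnf2 encodes Ring1B, the main H2A ubiquitin ligase of the complex. Its brightest probe set read 1032 in primitive HSC and 2364 in maturing HSC, 2.29-fold lower in primitive HSC. A second probe set, built on the same source sequence and almost as bright, read 234 in primitive HSC and 3115 in maturing HSC. The primitive signal there lay under the floor, so the difference was at least 7.06-fold. The direction was shared, but the 2 differences were at least 1.62 apart on the log2 scale. The SD of 0.82 between probe sets is for single values and not for a gap between 2 of them. The other 3 Rnf2 probe sets were under the floor on both arrays.

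Phc2, a polyhomeotic scaffold protein that helps PRC1 cluster on chromatin, read 522 in primitive HSC and 1100 in maturing HSC, a log2 ratio of -1.07. Its second probe set was under the floor in primitive HSC at 319 and read 950 in maturing HSC, at least 2.15-fold lower. Both probe sets thus pointed the same way, the second only as a bound. Both primitive readings lay near or under the floor, however. With the floor at percentile 75 the primitive reading of 522 also fell under it, and the Phc2 ratio became a bound of -0.10.

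The Cbx genes pointed in opposite directions. Cbx2 and Cbx7 each supply the chromodomain subunit that reads the PRC2 mark, and in the mouse Cbx7 is known for supporting self-renewal of blood stem cells. Cbx7 was under the floor in primitive HSC at 53.4 and read 690 in maturing HSC, a bound of at least 1.56-fold lower in primitive HSC. Its second probe set was under the floor on both arrays. Cbx2 read 1146 in primitive HSC and 458 in maturing HSC, 2.50-fold higher in primitive HSC. Its second probe set read 545 in primitive HSC and was under the floor in maturing HSC at 259, at least 1.23-fold higher. The maturing signal of Cbx2 and the maturing signal of Cbx7 both lay close to the floor. With the floor at percentile 75 the maturing reading of Cbx2 fell under it, and the Cbx2 ratio became a bound of 0.16. The Cbx7 bound became -2.29 with the floor at percentile 25.

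Of 19 further PRC1 genes, 11 were on the array and 8 were measured. In primitive HSC 5 of them read lower and 3 higher, and their median log2 ratio was -0.22. Past 2-fold there was 1 gene in each direction, where the shares of all measured genes were 17.6% lower and 15.6% higher. Scaled to the hybridisation controls, 5 were lower and 0 higher, beside 3386 lower and 426 higher of all 9061 measured genes. Bmi1, the Polycomb ring finger partner of Ring1B that blood stem cells need for self-renewal in the mouse, was under the floor in primitive HSC at 195 and read 1338 in maturing HSC, at least 3.03-fold lower. Its other probe set was under the floor on both arrays. Yaf2, a subunit of variant PRC1, read 14598 in primitive HSC and 4399 in maturing HSC, 3.32-fold higher, and its second probe set had a log2 ratio of 0.53. Pcgf6 had a ratio of 0.62 and Kdm2b, which recruits a variant PRC1 to unmethylated CpG-rich DNA, -0.44. The paralogous ligase gene Ring1 was under the floor on both arrays.

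Both PRC2 core genes read lower in primitive HSC. Eed, the subunit that binds trimethylated H3K27 and stimulates the enzyme, read 1281 in primitive HSC and 2102 in maturing HSC, 1.64-fold lower. Its other probe set was under the floor on both arrays. The Eed log2 ratio of -0.71 is within the SD of 0.82 between probe sets of a gene. Suz12, which holds the complex together, read 1420 in primitive HSC and 2538 in maturing HSC, a log2 ratio of -0.84. A second Suz12 probe set read 588 in primitive HSC and 1848 in maturing HSC, 3.14-fold lower. The third was under the floor in primitive HSC at 66.9 and read 663 in maturing HSC, at least 1.50-fold lower. All 3 measured Suz12 probe sets thus pointed the same way, and the remaining 3 were under the floor on both arrays.

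The start region of Suz12 is shown because a start of Suz12 and a start of Dnmt1 hold a consensus string of the E2F factors, which drive S phase genes. No other silencing gene with a listed start does, and Cbx2 had no listed start. The strings searched on both strands of the 250 bases before each start were TTTCCCGC, TTTGGCGC and TTTCGCGC. The RefSeq starts used here (GRCm38.p6) include 14 for 8 of the 9 genes, and 2 of the 14 (14.3%) hold a string, against 1.53% of all 32851 starts. Dnmt1 has 3 of these starts, and its string stands before 1 of them. CG dinucleotides, the sites of DNA methylation, numbered 1 to 40 in the 14 windows, with a median of 20.5, where all starts have a median of 6. Each string holds a CG, so the shares of 14.3% and 1.53% do not compare starts of like CG content. A match to these letters is a description of the sequence and not a measured binding site. In the lines below, capitals mark the string. The Suz12 window lies at chr11:79992856-79993105 on the plus strand, and the 30 bases around the Dnmt1 string at chr9:20952824-20952853 on the minus strand.
Suz12: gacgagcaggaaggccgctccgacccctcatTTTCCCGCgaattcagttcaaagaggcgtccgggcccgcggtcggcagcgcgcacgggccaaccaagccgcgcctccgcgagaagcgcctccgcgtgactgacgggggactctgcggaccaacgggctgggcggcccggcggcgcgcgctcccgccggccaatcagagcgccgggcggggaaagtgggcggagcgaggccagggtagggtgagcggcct
Dnmt1: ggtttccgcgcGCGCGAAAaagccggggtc

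The other PRC2 genes were less uniform. All 12 were on the array and 10 were measured. In primitive HSC 7 read lower and 3 higher, and their median log2 ratio was -0.41. Past 2-fold, 2 were lower and 1 higher, where the shares of all measured genes were 17.6% and 15.6%. Rbbp4, a histone-binding subunit shared with other chromatin complexes, read 3854 in primitive HSC and 11246 in maturing HSC, and its 3 probe sets had ratios between -2.37 and -1.54. Mtf2, an accessory subunit that directs PRC2 to CpG-rich DNA, had 4 measured probe sets, all lower in primitive HSC, with -0.94 by the brightest and a bound of -2.36 at the lowest. Aebp2, another accessory subunit, read 591 in primitive HSC and 1803 in maturing HSC, 3.05-fold lower. Phf1 went the other way, with 1140 in primitive HSC and 343, under the floor, in maturing HSC.

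The 2 alternative PRC2 enzymes differed in direction. Ezh2, the form typical of dividing cells, read 3202 in primitive HSC and 4252 in maturing HSC, a log2 ratio of -0.41. Ezh1, the form found also in resting cells, read 1762 in primitive HSC and 1115 in maturing HSC, a ratio of 0.66. Each was measured by 1 probe set, and both ratios are smaller than the SD of 0.82 between probe sets of a gene. For genes above the floor on both arrays, positive ratios under the 0.93 of the hybridisation controls turn negative when scaled to those controls. Ezh1 and Pcgf6 are such genes. A positive bound need not turn negative. Jarid2, an accessory subunit, had 0.66 by its brightest probe set and -0.35 by the next. The third was under the floor in primitive HSC at 51.6 and read 491 in maturing HSC, a bound of -0.15.

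Most measured genes for enzymes that remove the Polycomb histone marks, and for their partners, also read lower in primitive HSC. Of 10 listed genes, 7 were on the array and measured, 6 lower and 1 higher, with a median log2 ratio of -1.27. Past 2-fold there were 4, all lower, where the share of all measured genes was 17.6%. Kdm6a (Utx), which removes the H3K27 mark, read 561 in primitive HSC and 1981 in maturing HSC, 3.53-fold lower. Bap1, the deubiquitinase that reverses the PRC1 mark on H2A, read 652 in primitive HSC and 2282 in maturing HSC, 3.50-fold lower. Its cofactor Asxl1 read 731 in primitive HSC and 1759 in maturing HSC. Both measured probe sets of each of these 3 genes pointed the same way. Foxk1, which recruits the deubiquitinase to DNA, was at least 2.60-fold lower in primitive HSC. Hcfc1 and Ogt differed little, with ratios of -0.09 and -0.07 by the brightest probe set. A second Ogt probe set was 2.33-fold higher in primitive HSC. Foxk2 had a ratio of 0.30, and its 3 probe sets were all higher there. The median depended on the floor and was -0.16 with the floor at percentile 75, where 1 gene was past 2-fold. At that floor more of the ratios are bounds.

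**Figure D2:**
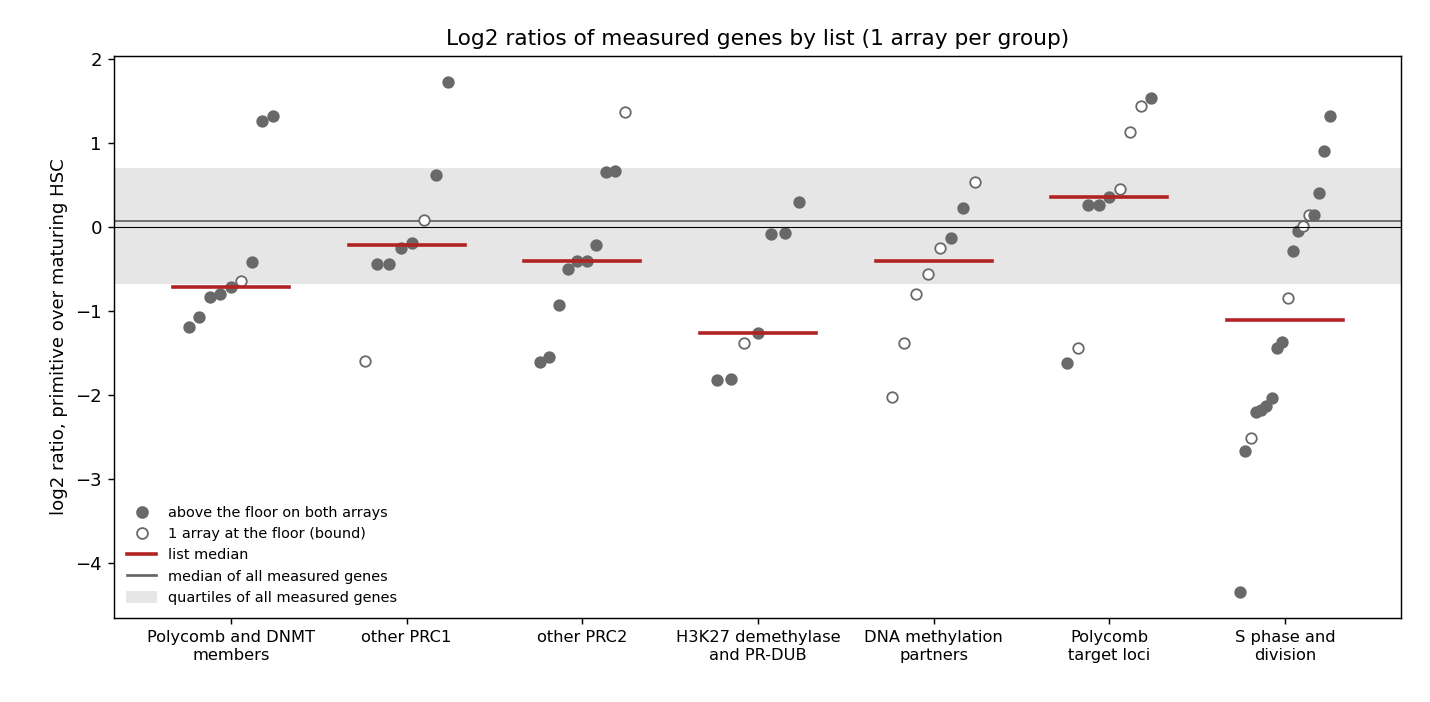
Log2 ratio of primitive over maturing HSC for each measured gene of 7 lists, with open points for bounds, a red bar for the list median, and a grey line and band for the median (0.07) and quartiles (-0.67 and 0.69) of all measured genes. The medians of the 9 silencing genes (-0.71), of the genes acting against Polycomb (-1.27) and of S phase and division (-1.11) lie below the band, and that of Polycomb target loci (0.35) lies within it.

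Among the DNA methyltransferases, Dnmt1 and Dnmt3b read lower in primitive HSC on every probe set, and Dnmt3a gave no single answer. Dnmt1, the maintenance enzyme, read 2536 in primitive HSC and 4413 in maturing HSC, 1.74-fold lower. Its second probe set read 1411 in primitive HSC and 2669 in maturing HSC, 1.89-fold lower. The 2 log2 ratios of -0.80 and -0.92 are close to each other, and all 4 readings are well above the floor. In size the first ratio is a little smaller than the SD of 0.82 between probe sets, and the second a little larger.

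Dnmt3b, a de novo enzyme best known from the early embryo, read 2313 in primitive HSC and 3085 in maturing HSC, a log2 ratio of -0.42. Its second probe set, annotated to the same transcript, was under the floor in primitive HSC at 161 and read 899 in maturing HSC, at least 2.04-fold lower. The brighter probe set on its own is within the SD between probe sets. All probe sets of Dnmt1 and Dnmt3b are of the kinds that can bind several transcripts, so neither gene has a value when those are left out.

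Dnmt3a, the de novo enzyme that adult mouse blood stem cells need in order to differentiate, has 5 probe sets, all built on the same source sequence. The brightest read 1814 in primitive HSC and 757 in maturing HSC, 2.40-fold higher in primitive HSC. The next read 652 in primitive HSC and 1689 in maturing HSC, 2.59-fold lower. The third was under the floor in primitive HSC at 135 and read 1405 in maturing HSC, at least 3.19-fold lower. The other 2 were under the floor on both arrays. The 3 measured probe sets thus spanned log2 ratios of -1.67 to 1.26. The gene's direction turned with the choice of probe set, to -1.37 by the median of its probe sets, and no direction is given for Dnmt3a here.

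**Figure D3:**
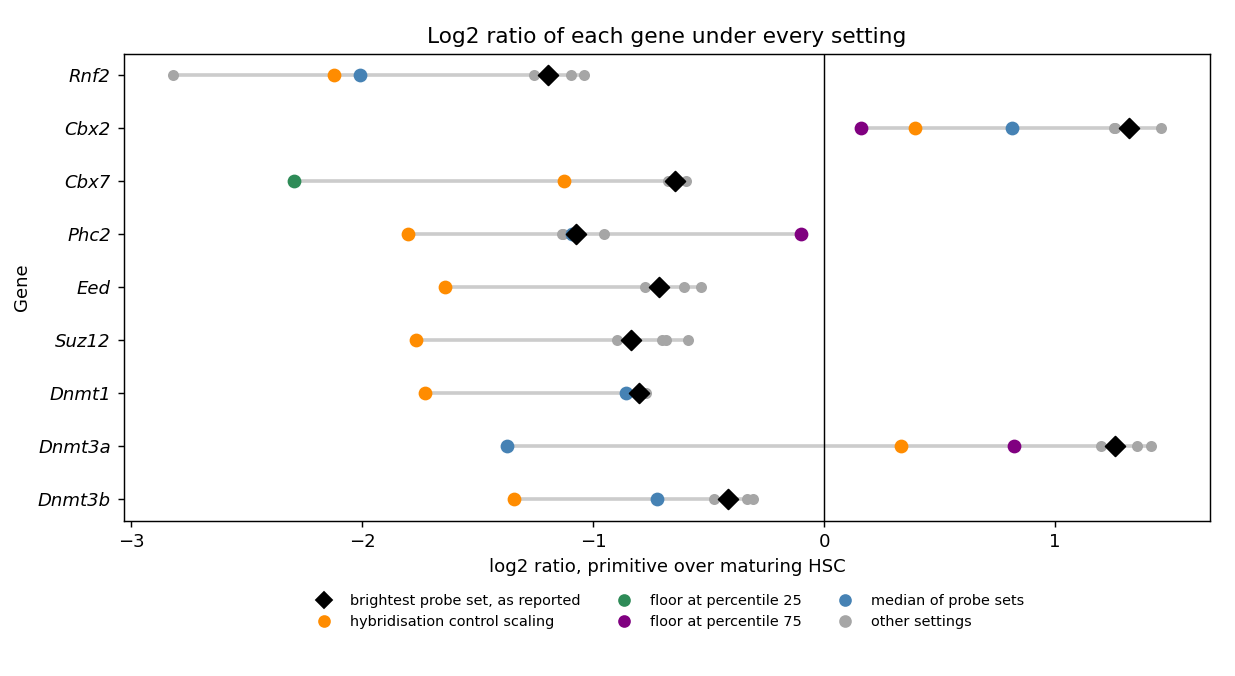
Log2 ratio of primitive over maturing HSC for each of the 9 genes, with a black diamond for the brightest probe set and points for the alternative settings. Dnmt3a crosses 0, with values from -1.37 to 1.42, while Cbx2 stays above 0 (0.16 to 1.46) and the other 7 genes stay below it. Some values are bounds, among them the 0.16 of Cbx2.

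Partners and readers of DNA methylation were mostly dim. Of 18 listed genes, 12 were on the array and 8 were measured. In primitive HSC 6 read lower and 2 higher, and the median was -0.40. Past 2-fold, 2 were lower and 0 were higher, where the shares of all measured genes were 17.6% and 15.6%. Uhrf1, which brings Dnmt1 to newly copied DNA, was under the floor in primitive HSC at 289 and read 1801 in maturing HSC, at least 4.08-fold lower. A second Uhrf1 probe set opposed it, with 917 in primitive HSC and 457 in maturing HSC, 2.01-fold higher. Mbd4, a repair glycosylase that binds methylated DNA, was at least 2.60-fold lower in primitive HSC. The chromatin remodeller gene Hells, needed for normal DNA methylation, and the reader gene Mbd2 were at least 1.74-fold and 1.47-fold lower. Tet1, which oxidises methylated cytosine, had a ratio of 0.22, and Tet2 and Tet3 had no probe set that carried their symbol alone.

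Loci that Polycomb is known to silence did not move as a block. Of 17 listed genes, 16 were on the array, 7 were under the floor on both arrays and 9 were measured, 7 higher and 2 lower in primitive HSC. Their median was 0.35, and -0.084 when scaled to the hybridisation controls. Past 2-fold, 3 were higher and 2 were lower, where the shares of all measured genes were 15.6% and 17.6%. Under the control scaling 0 were higher and 2 lower, beside 426 higher and 3386 lower of all 9061 measured genes. Cdkn1c, the p57 cell cycle inhibitor gene, read 1196 in primitive HSC and was under the floor in maturing HSC at 227, at least 2.71-fold higher. The p21 gene Cdkn1a read 3981 in primitive HSC and 1374 in maturing HSC, 2.90-fold higher, but its second probe set had a ratio of -0.64. Hoxa9, a stem and progenitor cell homeobox gene, had -1.62 by its brightest probe set and 1.06 by the other. Its cofactor gene Meis1 was under the floor in primitive HSC and at least 2.72-fold lower there.

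Most measured genes of S phase and division also read lower in primitive HSC. Of 20 listed, 18 were measured, 12 lower and 6 higher, with a median log2 ratio of -1.11. Past 4-fold, 7 were lower, where the share of all measured genes was 4.69%, and 0 higher, where it was 3.45%. The 7 were Mcm4, Mcm5, Mcm6, Mcm7, Mki67, Top2a and Rrm2. The 6 higher were Rrm1, Birc5 (0.90), Mcm3 (0.40), Aurkb (0.15), and as bounds Plk1 (0.14) and Bub1 (0.01). The 5 probe sets of Mcm3 ran from -2.14 to 1.17, and Cdk1 had -0.28. The proliferation marker gene Mki67 read 1322 in primitive HSC and 5415 in maturing HSC. The ribonucleotide reductase gene Rrm1 read 3097 in primitive HSC and 1236 in maturing HSC by its brightest probe set. Its second probe set opposed this, under the floor in primitive HSC at 86.6 and at 2594 in maturing HSC, a bound of -2.56. The replication clamp gene Pcna read 29692 in primitive HSC and 30769 in maturing HSC. Dnmt1, Uhrf1 and Ezh2 are known to be expressed more in dividing cells. The part of cell division in the ratios of the 9 genes was not tested.

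Markers of other blood cells also differed between the libraries. Signals of the 12 T and natural killer cell markers on the array summed to 58912 in primitive HSC and 13194 in maturing HSC, with Cd2, Cd3e, Cd3g and Cd4 under the floor on both arrays. Ccl5 alone read 37795 in primitive HSC and 1511 in maturing HSC, and 3 of the 8 measured markers (Nkg7, Gzmb and Cd8a) were lower in primitive HSC. The 13 neutrophil and monocyte markers summed to 133766 in primitive HSC and 74803 in maturing HSC, with 9 higher and 4 lower in primitive HSC. The 4 lower were Mpo, Csf3r, Ltf and Ctsg. Mpo and Csf3r were under the floor in primitive HSC and read 2587 and 2575 in maturing HSC. The 11 macrophage and dendritic cell markers summed to 9264 in primitive HSC and 4751 in maturing HSC, with C1qa, Itgax and Marco under the floor on both arrays. The 9 B cell markers summed to 2817 in primitive HSC and 7233 in maturing HSC, with 5 measured markers lower and 2 (Cd79a and Igll1) higher in primitive HSC. Pax5 and Ebf1 were under the floor on both arrays. Ighm alone was under the floor in primitive HSC at 56.6 and read 2880 in maturing HSC, but 3 of its 8 measured probe sets were higher in primitive HSC. The 5 progenitor markers summed to 6972 in primitive HSC and 20938 in maturing HSC. Of the progenitor sum, Cd53 read 2910 in primitive HSC and 14513 in maturing HSC, while Il7r went the other way, with 2993 in primitive HSC and 164, under the floor, in maturing HSC. Erythroid sums were 36513 in primitive HSC and 35752 in maturing HSC, with Car2 alone at 31255 in primitive HSC and 31463 in maturing HSC. Klf1 read 1651 in primitive HSC and 445 in maturing HSC, and 3 measured erythroid markers read lower in primitive HSC. Megakaryocyte sums were 6440 in primitive HSC and 6422 in maturing HSC, with 2 measured markers higher and 2 lower in primitive HSC. Stromal and endothelial sums were 3677 in primitive HSC and 4017 in maturing HSC, with 3 measured markers higher and 2 lower in primitive HSC. The part of such cells in the ratios was not tested. In sorted bulk material, fewer cells of a type and less RNA per cell cannot be told apart.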

How the data were processed

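The authors deposited 1 intensity per probe set and array, computed by MAS5 according to the submitters' processing notes. The sources used here give no MAS5 version, detection calls or genome build. The deposited intensities had 2% trimmed means of 1000.6 (primitive HSC) and 1000.4 (maturing HSC) and so had been scaled alike. A difference in total RNA per cell therefore cannot be seen.

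The arrays were set to an identical trimmed mean, and intensities under the pooled median of the 22626 probe sets other than controls were set to that floor. Genes were named from probe sets with 1 symbol in the platform annotation, and all 9 symbols matched RefSeq by Entrez identifier. Each gene took the probe set with the highest mean signal, and every probe set of the 9 genes is given. Ratios are log2 of primitive over maturing HSC. With 1 array per group, counts past 2-fold and 4-fold replace a test, and the number of arrays limits the precision. From each pathway list the 4 genes with the largest absolute ratio were named, together with Ezh1, Ezh2, Bmi1, Uhrf1 and the Tet genes. Further genes were added after their values had been seen. They are Jarid2, Ring1, Foxk2, Hcfc1, Ogt, the named S phase and division genes and the single markers. The 9 genes and the 15 other lists were chosen with earlier results of these data known. The steps were tested on simulated data with 4-fold and 8-fold changes planted in genes brighter than any of the 9. That test does not cover dim or floored readings, or probe sets of a gene that disagree. Python 3.11.15, numpy 2.4.6, pandas 2.3.3, statsmodels 0.14.6 and matplotlib 3.10.9 were used.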

Additional observations from a re-analysis of the deposited data

How the results depend on the processing

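The alternatives tried were no rescaling, lowess (fraction 0.3), quantile normalization, centring the ratios on 0, scaling to the hybridisation controls, floors at percentiles 25 and 75, the median of probe sets, leaving out cross-binding probe sets, leaving out bounds, and an 8-fold threshold. Taking the next-brightest probe set of Rnf2 and Dnmt3a was chosen after seeing the data. A median was called moved when it shifted by the SD between probe sets over the root of its number of genes. Direction reversed for 1 of the 9 genes, Dnmt3a, to -1.37 by the median of probe sets and also by the next-brightest probe set. Scaling to the hybridisation controls, whose own median log2 ratio was 0.93, moved the median of all measured genes from 0.07 to -0.67. It left 1 of the 9 genes past 4-fold and 7 past 2-fold, all lower in primitive HSC, with a median of -1.64. Of all 9061 measured genes, 3812 were then past 2-fold, 3386 lower and 426 higher. The medians became -1.15 for other PRC1 genes, -1.34 for other PRC2 genes, -1.86 for genes acting against Polycomb, -1.04 for DNA methylation partners, -0.084 for Polycomb target loci and -2.33 for S phase and division. In these lists 5, 7, 5, 5, 2 and 11 genes were then past 2-fold as lower and 0 in any as higher. Of all measured genes, 1217 were then past 4-fold, 104 higher and 1113 lower (8.55% higher, against 42.4% in the main setting of 305 higher and 415 lower). With the floor at percentile 25, 1 of the 9 genes was past 4-fold (Cbx7). Of all 11226 measured genes, 1759 were then past 4-fold and 5101 past 2-fold. The medians were -0.91 for DNA methylation partners and -1.37 for S phase and division. With the floor at percentile 75, 1 of the 8 measured silencing genes was past 2-fold. Of all 4987 measured genes, 291 were then past 4-fold (56.7% higher) and 1417 past 2-fold. The medians were -0.16 for genes acting against Polycomb and -1.44 for S phase and division. Leaving out bounds, 392 of all 5525 measured genes were past 4-fold and 1740 past 2-fold. The medians were then -0.68 for genes acting against Polycomb and -1.41 for S phase and division. The S phase median was also -1.44 after centring on 0 and -1.36 without cross-binding probe sets. The median of probe sets and the next-brightest probe set each put 1 of the 9 genes (Rnf2) past 4-fold. At 8-fold, 126 of all genes and 0 of the 9 were past the threshold. A higher floor tests fewer genes and turns more ratios into bounds. The cause of the other shifts was not tested. No paired analysis was possible because each group holds 1 array.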
